A study of Homo sapiens with 6 samples.

Results

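The mRNAs described here encode abundant nonhistone chromatin proteins, the high-mobility group (HMG) proteins of the HMGB, HMGN and HMGA families, and the small acidic proteins prothymosin alpha and parathymosin. A list of 10 genes was set (HMGB1, HMGB2, HMGB3, HMGN1, HMGN2, HMGN3, HMGN4, HMGA1, PTMA and PTMS), and every probe set that the platform annotation assigns to exactly 1 gene symbol on that list was taken. This gave 19 of the 19460 probe sets with 1 symbol and 9 of the 18417 genes they represent. HMGB1 has no such probe set and therefore no value of its own. The RNA came from extracellular vesicles (EVs) of 2 human T cell lines grown for 24 to 48 h in the serum-free HITES medium. WT EVs (3 arrays) came from JK cells, the wild type Jurkat T cell leukemia line with CD47, and CD47- EVs (3 arrays) from JinB8, a CD47-deficient somatic mutant of that line. JinB8 is a single mutant line, so CD47 and any other difference between the lines cannot be told apart. The labels call the samples exosomes and name no other treatment. They give 2 alternative kits for isolating EVs, Exo-quick and Exo-spin, and do not say which was used for which sample, so a kit difference between the groups was not tested. In all samples 300 ng of total RNA per sample was labeled for an Affymetrix whole-transcript array, whose name and probe annotation are those of a human gene array although the labeling text calls it a mouse one. The label text describes replicates in cell culture, and where these do not come from separate cultures the p values measure technical spread only.

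HMGB proteins carry HMG boxes that bend DNA, and HMGB1 released from cells acts as an alarm signal of inflammation. HMGN proteins bind nucleosomes and compete there with linker histone H1, and HMGA proteins bind AT-rich DNA through AT-hooks. Prothymosin alpha is a highly acidic nuclear protein that binds histone H1 and is abundant in proliferating cells such as lymphocytes. Parathymosin is its acidic relative. The comparison between the groups asks which of these mRNAs differ in the EVs of cells with and without CD47.

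PTMA was the only member that passed the test. By its brightest probe set, its mRNA was 1.53-fold higher in CD47- EVs than in WT EVs. This call was kept in only 5 of 13 alternative fits. It was lost with the mean of its 6 probe sets (log2 difference 0.31). The other 8 measured members did not pass, with log2 differences from -0.13 for HMGN1 to 0.16 for PTMS. A log2 difference here is the mean of the 3 CD47- arrays less the mean of the 3 WT arrays. The median log2 difference of the 9 members was 0.13, and that of all 18417 genes was 0.0029. To pass, a gene needed a limma p below 0.05 after adjustment over the whole gene table, which 0.668% of genes did as higher (1 of 9 members) and 0.0163% as lower (0 of 9 members). With the unadjusted limma p below 0.05, 1 of 9 members was higher, where 5.16% of all genes were, and 0 were lower, where 2.87% of all genes were.

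The promoters of 3 members are shown. PTMA is the member that passed, and HMGN1 and HMGN2 are the family pair whose within-array difference separated the groups. Each window runs from 250 bases before to 50 bases after a transcription start in RefSeq (GRCh38.p14), 5′ to 3′ on the strand of the gene. Capitals mark 3 motifs, searched on both strands. The first is CCAAT, the core of the CCAAT box. The second is GGGCGG, the core of the GC box bound by Sp1. The third is the palindrome CACGTG, the E-box bound by MYC and related factors, and neighboring motifs can overlap. The windows are PTMA at chr2:231708275-231708574 (plus strand), HMGN1 at chr21:39349039-39349338 (minus strand) and HMGN2 at chr1:26472190-26472489 (plus strand).
PTMA: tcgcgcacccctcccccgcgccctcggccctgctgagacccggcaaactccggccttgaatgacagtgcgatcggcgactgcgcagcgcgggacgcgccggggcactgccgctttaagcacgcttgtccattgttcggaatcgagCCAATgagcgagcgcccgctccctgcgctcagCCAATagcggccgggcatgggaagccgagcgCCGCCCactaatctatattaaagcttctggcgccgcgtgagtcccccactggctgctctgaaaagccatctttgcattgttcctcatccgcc
HMGN1: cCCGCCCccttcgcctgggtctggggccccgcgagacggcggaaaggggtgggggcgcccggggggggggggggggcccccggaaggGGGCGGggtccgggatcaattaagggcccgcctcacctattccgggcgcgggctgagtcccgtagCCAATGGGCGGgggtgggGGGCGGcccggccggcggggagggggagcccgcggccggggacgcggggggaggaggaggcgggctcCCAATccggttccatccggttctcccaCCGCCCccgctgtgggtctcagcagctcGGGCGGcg
HMGN2: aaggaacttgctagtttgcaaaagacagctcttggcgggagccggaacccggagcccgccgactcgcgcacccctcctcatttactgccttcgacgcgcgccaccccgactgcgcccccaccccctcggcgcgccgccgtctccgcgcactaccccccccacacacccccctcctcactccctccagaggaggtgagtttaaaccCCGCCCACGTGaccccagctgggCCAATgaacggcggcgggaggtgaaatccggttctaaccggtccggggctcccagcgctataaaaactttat
The PTMA window holds CCAAT at 2 places, starting 105 and 73 bases before the transcription start, and the HMGN1 window holds it at 2 places, 98 and 13 bases before the start. The HMGN2 window holds it at 1 place, 22 bases before the start. GGGCGG was found at 1 place in the PTMA window, 6 in the HMGN1 window and 1 in the HMGN2 window. In the HMGN2 window it overlaps CACGTG, the only such motif among the members' windows. The RefSeq table gave 12 windows for 8 of the 10 listed genes, all but HMGB2 and PTMS. CCAAT was in 9 of these 12 windows, for 7 of the 8 genes, and in 34.6% of all 35116 windows. GGGCGG was also in 9 of 12 windows, against 45.0% of all windows, and CACGTG in 1 of 12, against 7.26%. The share of G and C was 64.7% in the PTMA window, 79.3% in that of HMGN1 and 65.3% in that of HMGN2, and the median window had 58.7%. These letters are a description of the genes and say nothing about why EV levels differ.

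PTMA, which encodes prothymosin alpha, had log2 values of 10.28, 10.07 and 9.78 in WT EV replicates 1 to 3 and of 10.59, 10.62 and 10.77 in CD47- EV replicates 1 to 3. Every CD47- array lay above every WT array. The mean was 10.04 ± 0.25 (SD, n = 3) for WT EVs, against 10.66 ± 0.095 (SD, n = 3) for CD47- EVs. The log2 difference was 0.62 (standard error 0.11, 95% interval 0.37 to 0.86, adjusted p = 0.0267 from limma). As a gauge of background, 341 olfactory receptor genes, whose proteins serve the sense of smell, were used (median 5.49, 95th percentile 6.79 on the log2 scale). By its brightest probe set, PTMA was brighter than all of them. By its p value PTMA was number 96 of the 18417 genes, and its log2 difference was larger in size than that of 99.6% of them.

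**Figure D1:**
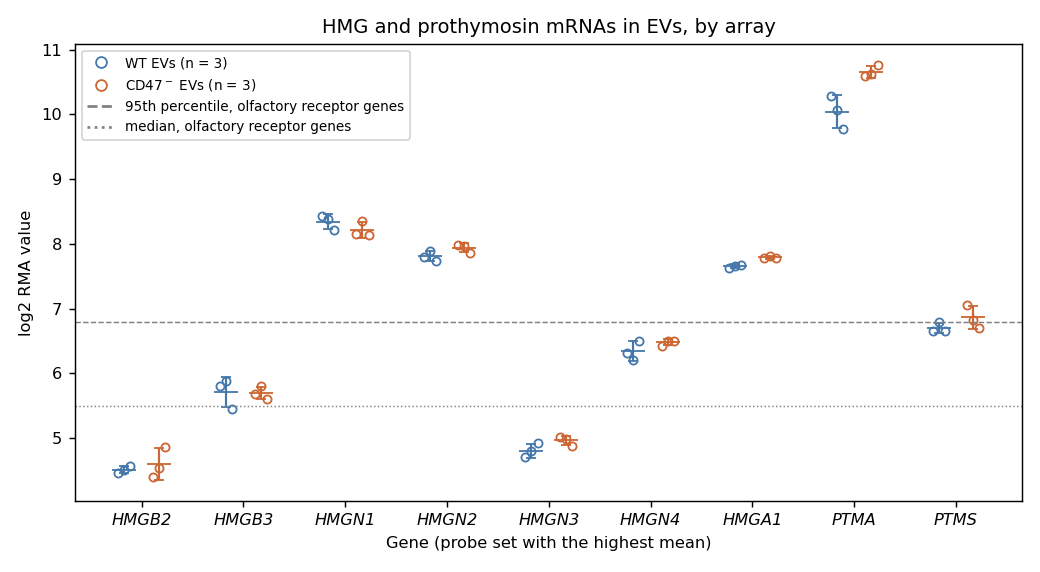
log2 RMA value (vertical axis) of each of the 9 measured HMG and prothymosin genes (horizontal axis) in the 3 WT arrays (blue circles) and the 3 CD47- arrays (orange circles), with the mean and SD of each group. The groups separate for PTMA and, by a small step, for HMGA1, and overlap for the other 7 genes in at least 1 array. The dashed line at 6.79 and the dotted line at 5.49 are the 95th percentile and the median of 341 olfactory receptor genes, which serve as a background gauge.

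Of the 6 probe sets named for PTMA alone, all had a positive log2 difference and 1 passed. Probe set 8061136 is the one given above. Probe set 8107470, the next brightest, had values of 10.04, 10.01 and 9.70 in the WT arrays and 10.20, 10.36 and 10.39 in the CD47- arrays, a log2 difference of 0.40 (95% interval 0.18 to 0.61). Its adjusted p over all 19460 probe sets was 0.13 from limma.
Probe sets 7954006 and 7961022 had log2 differences of 0.29 and 0.25 (adjusted p = 0.133 and 0.283 from limma), and both had groups that did not overlap. Probe set 8049083, with a mean of 4.47, lay above only 18.5% of the background gauge and had a log2 difference of 0.18. Probe set 7976239, with a mean of 6.31, lay above 82.7% of the gauge and had 0.12 with groups that overlapped. The size of the PTMA difference therefore depended on the probe set, from 1.09-fold to 1.53-fold. When the 6 probe sets were averaged, the log2 difference was 0.31 and did not pass (adjusted p = 0.152 from limma). In the annotation each pair among 8061136, 8107470, 7961022 and 7954006 shares 17 to 20 mRNA accessions, so these are not independent measurements. Probe set 8061136 shares 1 accession with 7976239 and 0 with 8049083. All 6 probe sets are named for the same gene and are not counted as separate evidence. RefSeq lists 15 pseudogenes named for PTMA whose transcripts such probes can share.

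By its brightest probe set, PTMA kept nearly the same place in the order of brightness, with little room to move up. Its value was number 4 of 18417 genes in each WT array and number 4, 5 and 3 in CD47- replicates 1 to 3. A further quantile normalization of the gene table, which gives the same value to the same place in every array, left PTMA with a log2 difference of 0.0035 (adjusted p = 0.995 from limma). That outcome follows from its nearly unchanged place. Whether the deposited difference is particular to PTMA or shared with the brightest values of the arrays was not tested. The 20 brightest genes differed widely, with log2 differences from -0.145 for IGKC to 1.96 for SH3KBP1. Their median log2 difference was 0.16 as deposited and -0.18 after that step. Among the 864 genes brighter than 95% of the background gauge, 4 of them members, 60 rose (6.94%) and 0 fell with limma. Over all genes 0.668% rose and 0.0163% fell. The median log2 difference of these bright genes was 0.033, and 66.2% of them were above 0, against 51.3% of all genes.

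PTMA passed in the fit with a replicate block (adjusted p = 0.0493), with the arrays centered on the background gauge (0.00195), with array weights (0.0269), among genes above the gauge's median (0.00718) and without WT replicate 1 (0.00948), all from limma. It did not pass with a mean-variance trend (adjusted p = 0.0739 from limma). It also did not pass without WT replicate 2 or 3 (0.0743 and 0.0993) or without CD47- replicate 1, 2 or 3 (0.0564, 0.0809 and 0.141, all adjusted p from limma). In these fits without 1 array its log2 difference lay between 0.49 and 0.74.

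**Figure D2:**
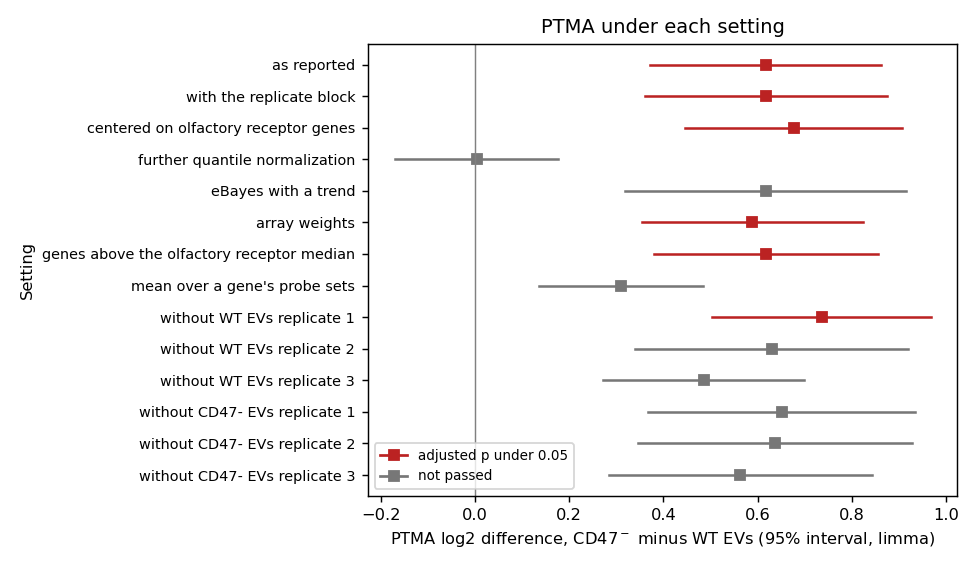
log2 difference of PTMA between CD47- and WT EVs (horizontal axis, squares) with its 95% interval from limma (lines) under each setting (vertical axis), in red where the adjusted p was under 0.05. The difference was 0.62 as reported, 0.31 with the mean of its 6 probe sets and 0.0035 after a further quantile normalization.

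PTMS, which encodes parathymosin, had log2 values of 6.66, 6.80 and 6.65 in WT EVs and 7.06, 6.83 and 6.71 in CD47- EVs. CD47- replicate 1 was the highest array and CD47- replicate 3 lay within the WT values. The log2 difference was 0.16 (95% interval -0.045 to 0.37, adjusted p = 0.75 from limma). The difference between the changes of PTMA and PTMS, taken within each array, was 0.45 on the log2 scale (95% interval -0.14 to 1.04 from the spread of the 6 arrays), with p = 0.2 from a two-sided exact permutation test. The exact test with 3 arrays in each group cannot give a p under 0.1.

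HMGN1, whose protein loosens chromatin at nucleosomes, was the member with the lowest log2 difference. Its brighter probe set 8176191 had values of 8.44, 8.38 and 8.21 in WT EVs and 8.15, 8.36 and 8.13 in CD47- EVs. CD47- replicate 2 lay within the WT values and the other CD47- arrays lay below them. The log2 difference was -0.13 (95% interval -0.33 to 0.066, adjusted p = 0.81 from limma), and the dimmer probe set 8070389 gave 0.010. In the order of brightness HMGN1 held places 54, 52 and 62 in the WT arrays and 85, 73 and 94 in the CD47- arrays, so its place was lower in every CD47- array. After the further quantile normalization its log2 difference was -0.34 and did not pass (lowest adjusted p over the alternatives 0.115 from limma).

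HMGN2, the close relative of HMGN1, had log2 values of 7.81, 7.90 and 7.74 in WT EVs and 7.98, 7.98 and 7.86 in CD47- EVs. CD47- replicate 3 lay below WT replicate 2 and the other CD47- arrays lay above all WT arrays. The log2 difference was 0.13 (95% interval -0.044 to 0.30, adjusted p = 0.773 from limma), and it was -0.0021 after the further quantile normalization. The other HMGN2 probe sets gave 0.084 (8000409) and 0.22 (7899187). The last had groups that did not overlap and an unadjusted p of 0.0398, with an adjusted p of 0.572 from limma over the probe sets.
Within each array, the log2 value of HMGN1 less that of HMGN2 was 0.63, 0.48 and 0.47 in WT EVs and 0.16, 0.38 and 0.27 in CD47- EVs. All 3 CD47- values lay below all 3 WT values. The change of HMGN1 less that of HMGN2 was thus -0.26 on the log2 scale (95% interval -0.48 to -0.029). The p from the two-sided exact permutation test was 0.1, the smallest it can give, and it was 0.533 when adjusted over the 8 family pairs compared. With the mean of each gene's probe sets the signed difference was -0.20 (exact p = 0.2).

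HMGN3 and HMGN4, the remaining HMGN genes, had small positive differences. HMGN3 had log2 values of 4.70, 4.80 and 4.92 in WT EVs and 5.02, 4.99 and 4.88 in CD47- EVs. HMGN4 had 6.31, 6.21 and 6.51 in WT EVs and 6.43, 6.51 and 6.51 in CD47- EVs. In both genes WT replicate 3 was the highest WT array and lay within the CD47- values. The log2 differences were 0.16 for HMGN3 (95% interval -0.018 to 0.34) and 0.14 for HMGN4 (95% interval -0.052 to 0.33), with adjusted p = 0.693 and 0.777 from limma. The change of HMGN1 differed from those of HMGN3 and HMGN4 by -0.29 and -0.27, with exact permutation p of 0.2 and 0.3. The changes of HMGN2, HMGN3 and HMGN4 differed from each other by -0.034 to 0.022, and the widest interval of these 3 differences ran from -0.41 to 0.38.

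HMGA1, the AT-hook protein gene of dividing cells, had 3 probe sets, and in each of them the 3 CD47- arrays lay above the 3 WT arrays. Probe set 8180308 had values of 7.63, 7.66 and 7.68 in WT EVs and 7.78, 7.81 and 7.79 in CD47- EVs. The step was small, 1.10-fold or a log2 difference of 0.13 (95% interval -0.021 to 0.29, adjusted p = 0.717 from limma). Probe set 8180307 gave 0.15. Probe set 8118794, with values of 6.63, 6.76 and 6.65 in WT EVs and 6.94, 6.84 and 6.94 in CD47- EVs, gave 0.23 (adjusted p = 0.339 over the probe sets from limma). All 3 probe sets are named for the same gene and are not counted as separate evidence. The annotation names 1 accession for both 8118794 and 8180307 and 0 that either shares with 8180308. After the further quantile normalization the HMGA1 difference was 0.024.

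HMGB2 and HMGB3, DNA-bending proteins of the HMGB family, showed no difference larger than the spread of the arrays. HMGB2 had log2 values of 4.46, 4.51 and 4.56 in WT EVs and 4.39, 4.53 and 4.87 in CD47- EVs, so the highest and the lowest arrays were both CD47- arrays. Its log2 difference of 0.087 (95% interval -0.15 to 0.32, adjusted p = 0.93 from limma) became -0.049 without CD47- replicate 3. HMGB3 had 5.81, 5.88 and 5.45 in WT EVs and 5.69, 5.80 and 5.61 in CD47- EVs, all CD47- values within the WT range. Its log2 difference was -0.016 (95% interval -0.25 to 0.22, adjusted p = 0.99 from limma), which turned to 0.044 with arrays centered on the background gauge. The 2 genes differed in change by 0.10 (exact permutation p = 0.5).

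For HMGB1 the annotation gives 1 probe set, which it shares with CTCFL and SP100, so its values cannot be assigned to HMGB1. They were 7.13, 7.15 and 7.00 in WT EVs and 7.15, 7.20 and 7.28 in CD47- EVs, a log2 difference of 0.12. A probe set shared by ERFE and HMGA1 gave 0.054. RefSeq lists 50 pseudogenes named for HMGB1, 48 for HMGN2, 38 for HMGN1, 32 for HMGB3 and 8 for HMGA1. The pseudogenes measured by a probe set of their own were HMGB3P1 and HMGN2P46, with log2 differences of -0.093 and -0.10 that did not pass (adjusted p = 0.885 and 0.879 from limma).

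**Figure D3:**
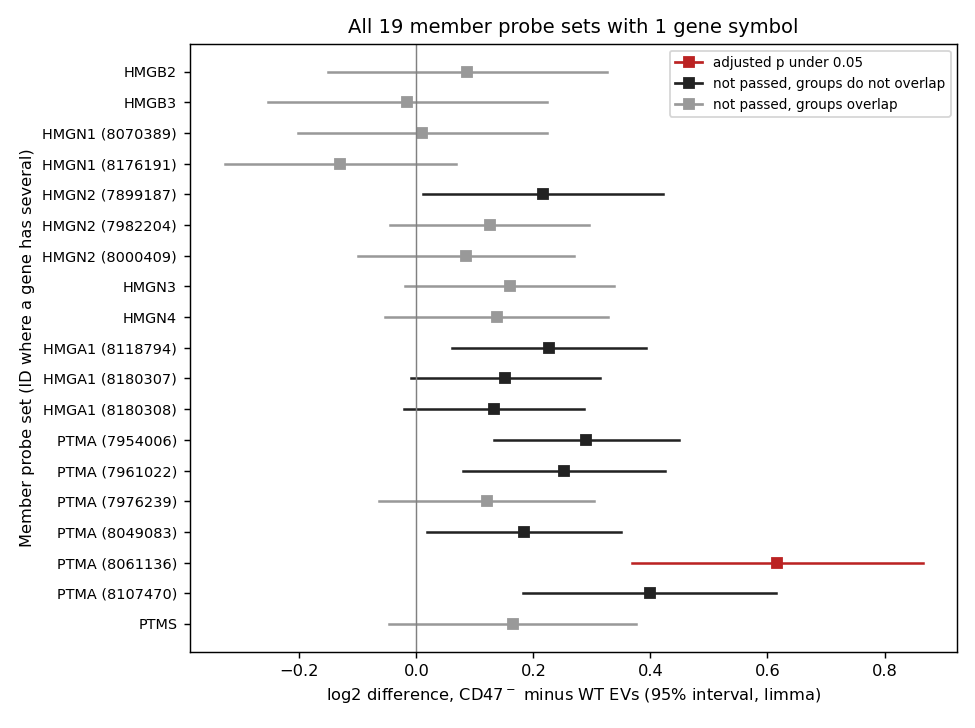
log2 difference between CD47- and WT EVs (horizontal axis, squares) with the 95% interval from limma (lines) for each of the 19 member probe sets (vertical axis). The 6 PTMA probe sets lie between 0.12 and 0.62 and 1 of them passed (red); the 8 black squares are probe sets that did not pass although all 3 CD47- arrays lay above all 3 WT arrays.

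Over the 19 probe sets, 17 had a positive difference, and 1 passed, where 0.709% of all 19460 probe sets passed as higher. The groups did not overlap, with CD47- higher, in 9 of 19 probe sets, of which 5 were named for PTMA, 3 for HMGA1 and 1 for HMGN2, and in 7.39% of all probe sets. Counted by gene, with 1 probe set each, this was 2 of 9 members, PTMA and HMGA1, against 7.3% of all genes, and no member was lower without overlap, against 5.53% of all genes. The share of probe sets counts the same mRNA up to 6 times.

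Genes that work with these proteins were compared from lists. Of 9 measured linker histone genes, whose proteins bind the same nucleosome region that HMGN proteins reach, 2 rose, 0 fell and 7 did not pass. Over all genes 0.668% passed as higher and 0.0163% as lower. H1-4 had a log2 difference of 1.23, from 6.75 ± 0.10 (SD, n = 3) to 7.98 ± 0.20 (SD, n = 3), with adjusted p = 1.59e-04 from limma. H1-5 had 0.40 (adjusted p = 0.0328 from limma), and did not pass with the replicate block or when any array other than WT replicate 2 was left out (highest adjusted p = 0.154 from limma). The list's median log2 difference was 0.15. H1-5 lay above only 44.3% of the background gauge, and linker histone genes resemble each other in sequence.
Of 22 other HMG and HMG-box genes, 0 fell (0.0163% of all genes did) and 1 rose (0.668% of all genes did). This was LEF1, a T cell transcription factor with an HMG box, whose values of 6.51, 6.65 and 6.55 in WT EVs lay below the 7.19, 7.13 and 7.21 of CD47- EVs (log2 difference 0.61, adjusted p = 0.00186 from limma). The median of this list was 0.030.

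Of 22 acidic histone chaperones and remodeling partners, among them SET, the ANP32 proteins and nucleophosmin, 0 passed with limma, while 9 of 22 had an unadjusted p below 0.05 as higher, against 5.16% of all genes, and 0 as lower, against 2.87%. Their median log2 difference was 0.11. NAP1L1, a nucleosome assembly protein, had a log2 difference of 0.66 (adjusted p = 0.088 from limma), and passed with the replicate block, with arrays centered on the background gauge and without WT replicate 2. ANP32E, a chaperone of a histone H2A variant, had 0.28 (adjusted p = 0.234 from limma).
Of 21 receptors, partners and redox enzymes linked to HMGB1, 0 passed with limma, while 2 of 21 had an unadjusted p below 0.05 as higher and 0 as lower, against the same 5.16% and 2.87%. These were APEX1, a DNA repair and redox enzyme, with a log2 difference of 0.34 (adjusted p = 0.0966 from limma), and MYD88, the adaptor of Toll-like receptors, with 0.20 (adjusted p = 0.447 from limma). APEX1 passed with arrays centered on the background gauge and among genes above its median. The median of this list was 0.0042.

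**Figure D4:**
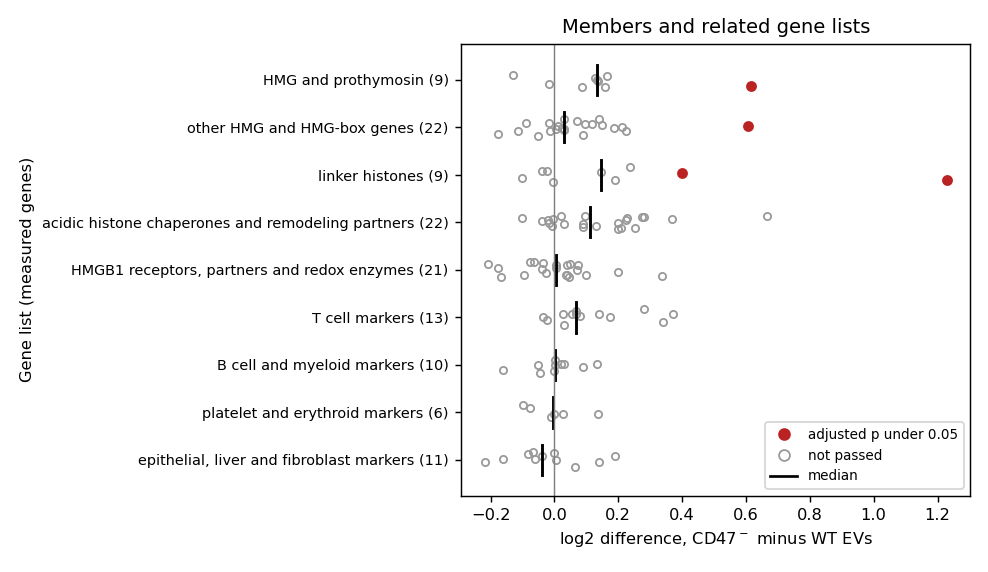
log2 difference between CD47- and WT EVs (horizontal axis) of each measured gene (circles) in 9 gene lists (vertical axis, number of measured genes in parentheses), with the median of each list (black bar) and genes that passed in red. PTMA is the red point of the HMG and prothymosin genes, whose median was 0.13, and H1-4 is the point farthest to the right at 1.23.

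The genes whose pattern over the 6 arrays was most like the mean of the 9 members were PABPC1, RPL5, TUBG1, RPS2 and C17orf50, with Pearson r from 0.970 to 0.988. They were picked among the 864 bright genes. The points share their arrays and the difference between the groups, so r is only a description. Their log2 differences ranged from 0.097 for C17orf50 to 0.74 for PABPC1, which binds the poly(A) tail. The mean over the 9 members was 6.90, 6.91 and 6.83 in WT EVs and 7.01, 7.05 and 7.01 in CD47- EVs.

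The arrays as a whole were alike, with medians over the 33297 probe sets from 5.08 to 5.14 and correlations between arrays from 0.980 to 0.989. CD47 itself had log2 values of 4.72, 4.69 and 4.72 in WT EVs and 4.58, 4.67 and 4.94 in CD47- EVs. Its log2 difference was 0.017 with a mean brighter than 24.0% of the background gauge, too dim to check the labels. Against the gauge 4 members (HMGN1, HMGN2, HMGA1 and PTMA) exceeded its 95th percentile, and HMGB2 and HMGN3 lay below the median, where a change may not be seen. Of the T cell markers 8 of 13 exceeded the gauge's median, and so did 3 of 10 B cell and myeloid, 4 of 6 platelet and erythroid and 8 of 11 epithelial, liver and fibroblast markers, so this gauge does not separate the cell types. None of these markers passed with limma. With the unadjusted p below 0.05, 3 of 13 T cell markers and 1 of 11 markers of the epithelial, liver and fibroblast list were higher, against 5.16% of all genes, and 0 of any of these marker lists were lower.
The T cell markers had a median log2 difference of 0.069. Their summed log2 value ran from 74.5 to 75.9 in WT EVs and from 76.8 to 77.1 in CD47- EVs. CD3E and CD3G had log2 differences of 0.37 and 0.34 (adjusted p = 0.112 and 0.172 from limma), and CD3E passed with arrays centered on the background gauge and among genes above its median. The sum was higher in every CD47- array than in every WT array, as PTMA was, although 0 of the 13 markers passed. The sums of the other HMG and HMG-box genes, the linker histones and the acidic chaperones were separated in the same way. The first and the last of these lists both hold SSRP1 (log2 difference 0.22), so their sums are not separate observations. The part of single genes in these sums, such as LEF1 (0.61) and H1-4 (1.23), was not tested. The sums of the HMGB1-linked list and the other marker lists overlapped. The part of the T cell markers in the PTMA result was not tested. The medians of the other marker lists were 0.0015 for B cell and myeloid and -0.0046 for platelet and erythroid markers. That for epithelial, liver and fibroblast markers was -0.040. With arrays centered on the gauge these medians were 0.061, 0.055 and 0.019, where the median of all genes was 0.062. The genes of these lists with the smallest p were CD79A (-0.16), MS4A1 (0.13), ALAS2 (0.14), HBB (-0.097), DCN (0.19) and TTR (-0.16). The values are relative levels within 300 ng of EV RNA, so more of an mRNA in each EV and less of other RNA cannot be told apart.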

How the data were processed

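RNA of 6 EV samples, 1 array each, was used. Samples were named and numbered by the submitters' titles. The authors had run RMA, in Affymetrix Expression Console per the labels (versions not given in the sources used here), and deposited log2 intensities. RMA corrects background, normalizes by quantiles and summarizes probe sets. The number of arrays limits the precision, and no detection calls or depth exist. Genes were named through GEO's platform annotation, and 1754 probe sets with several symbols and 12083 with none were left out of the tests. For a gene with several probe sets the brightest on average was used, with no filter on dim genes. CD47- and WT EVs were compared with limma 3.58.1 in R 4.3.3 (lmFit, eBayes) and Benjamini-Hochberg adjustment over all 18417 genes, or over all 19460 probe sets where single probe sets are given, and the step was tested on simulated data. Family members were compared with exact permutation tests of within-array differences (20 arrangements). Named genes outside the members were, per list, up to 4 that passed or the 2 with the smallest p, and the 5 most alike. Members and lists were chosen with earlier results of these data known. Alternatives were a replicate block, centering, quantile normalization, a variance trend, array weights, a filter on dim genes, the mean over probe sets, a 2-fold rule and leaving out each array. Promoters came from RefSeq (GRCh38.p14). The array table names no genome build, so probe sets have no coordinates here.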

Additional observations from a re-analysis of the deposited data

How the results depend on the processing

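As reported, 1 member gene (PTMA) and 1 member probe set passed. With limma, 0 member genes passed after a further quantile normalization, with a variance trend, with the mean over probe sets and under an unadjusted p with a 2-fold limit, and from 0 to 1 when 1 array was left out. PTMA held nearly the same place in every array, and quantile normalization gives the same value to the same place. Whether its difference is shared with the brightest values was not tested. The cause of the other losses was not tested. Among member probe sets 0 passed with the replicate block or a variance trend, 2 with arrays centered on the background gauge of olfactory receptor genes, and 0 to 1 without 1 array. Over all genes, 123 were higher as reported, 106 with the replicate block, 237 after that centering, 19 under the 2-fold rule and 53 to 96 without 1 array (53 where WT replicate 3 was omitted, and 77 and 58 where CD47- replicate 2 or 3 was). Lower genes were 3 as reported, 7 after quantile normalization, 0 under the 2-fold rule and 1 to 5 without 1 array. The centering moved the median log2 difference of all genes from 0.0029 to 0.062.
The sign of HMGB3 turned after centering (0.044), that of HMGN2 after quantile normalization (-0.0021), and that of the HMGN2 less HMGN4 difference with the mean over probe sets (0.0052). Without 1 array HMGB2 ran from -0.049 to 0.19, HMGB3 from -0.15 to 0.068 and HBB from -0.18 to 0.0032. The family differences ran from -0.077 to 0.26 for HMGB2 less HMGB3, from -0.13 to 0.013 for HMGN2 less HMGN3, from -0.13 to 0.096 for HMGN2 less HMGN4 and from -0.030 to 0.083 for HMGN3 less HMGN4.
Same-numbered arrays did not deviate together (r of 0.024, -0.017 and -0.037 across genes), so no pairing by number was seen in the values. Whether same-numbered samples were cultured or handled together was not tested. With the replicate block H1-5 did not pass and NAP1L1 did.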
